A study of Mus musculus with 3 samples.

Results

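Hepatocytes, the main cells of the liver, secrete most of the protein of blood plasma, and 40 genes of such proteins were followed through polysomal RNA of mouse bone marrow cells. All 40 were matched by symbol, out of 48795 gene identifiers in the count tables. They were chosen by measured values: counts of liver genes in these same libraries, WT 1 above all, were known when the list was drawn up. That the members were counted in WT 1 is therefore the ground of their choice and is given below as a description. The series compares wild-type mice (2 libraries, here WT 1 and WT 2) with mice of the genotype Mat KO (1 library), and by its title the subject is translation and the small nucleolar RNAs of the imprinted Dlk1-Gtl2 locus. Both groups are bone marrow cells of the mouse held in cycloheximide, which stops ribosomes on their mRNAs, before lysis and separation on a sucrose gradient. The labels give no age, sex, strain, allele or pooling for either group, and do not say whether the WT libraries came from separate mice. Liver is named in no label.

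Plasma proteins carry hormones, lipids, vitamins and metals, clot blood, restrain proteases and act in the acute phase response. Their mRNAs are translated on the endoplasmic reticulum of hepatocytes and are among the most abundant of the liver. A few of the genes are also transcribed elsewhere: Hp in maturing neutrophils, C3 and Apoc1 in macrophages, Rbp4 in fat cells, and Trf in several tissues. Bone marrow in the adult is a blood-forming tissue in which globin and neutrophil granule mRNAs are abundant.

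The libraries were shallow and unlike each other, which touches every value below. Gene-assigned counts were 64547 (WT 1), 239429 (WT 2) and 125871 (Mat KO), and 67.6%, 99.0% and 88.5% of them fell on mt-Rnr1, mt-Rnr2, CT010467.1 and Lars2. Below, 3 values in a row without names stand for WT 1, then WT 2, then Mat KO. Levels are given per 10000 of the remaining counts ("other counts"), which numbered 20903, 2301 and 14430. A count of 0 allowed up to 1.44, 13.04 and 2.08 per 10000 other counts, taking 3 counts as its limit. Folds against this limit take the other library at its observed share and leave out the counting error of that share. Intervals are 95% Wilson intervals unless named otherwise, and they cover counting error only, since reads without molecular identifiers are not independent molecules. Globin genes had 401 counts in WT 1 and 0 in both other libraries, and 15 neutrophil granule genes had 587, 0 and 0. Both lists were thus at 0 outside WT 1, and they do not cover all cells of marrow.

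In WT 1 the 40 genes summed to 937 counts, or 448 per 10000 other counts (interval 421 to 477). In the same library the 4 globin genes summed to 192 (174 to 211) and the 15 granule genes to 281 (259 to 304). These sums cover unlike numbers of genes, and the 40 were chosen by counts in WT 1, so they do not rank tissues. WT 2 held 26 member counts, 113 per 10000 (77.2 to 165), and the Mat KO library held 1, 0.693 per 10000 (0.122 to 3.92). At least 1 count was recorded for 38, 2 and 1 of the members. With a minimum of 3 counts the numbers were 32, 2 and 0, and with a minimum of 10 counts 25, 2 and 0. The ratio of the summed share in WT 1 to that in WT 2 was 3.97 (exact interval 2.69 to 6.11), a description only, since the list was drawn from genes counted in WT 1. Relative to nuclear protein-coding counts other than Lars2 the ratio was 2.36, and relative to all gene-assigned counts it was 134.

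**Figure D1:**
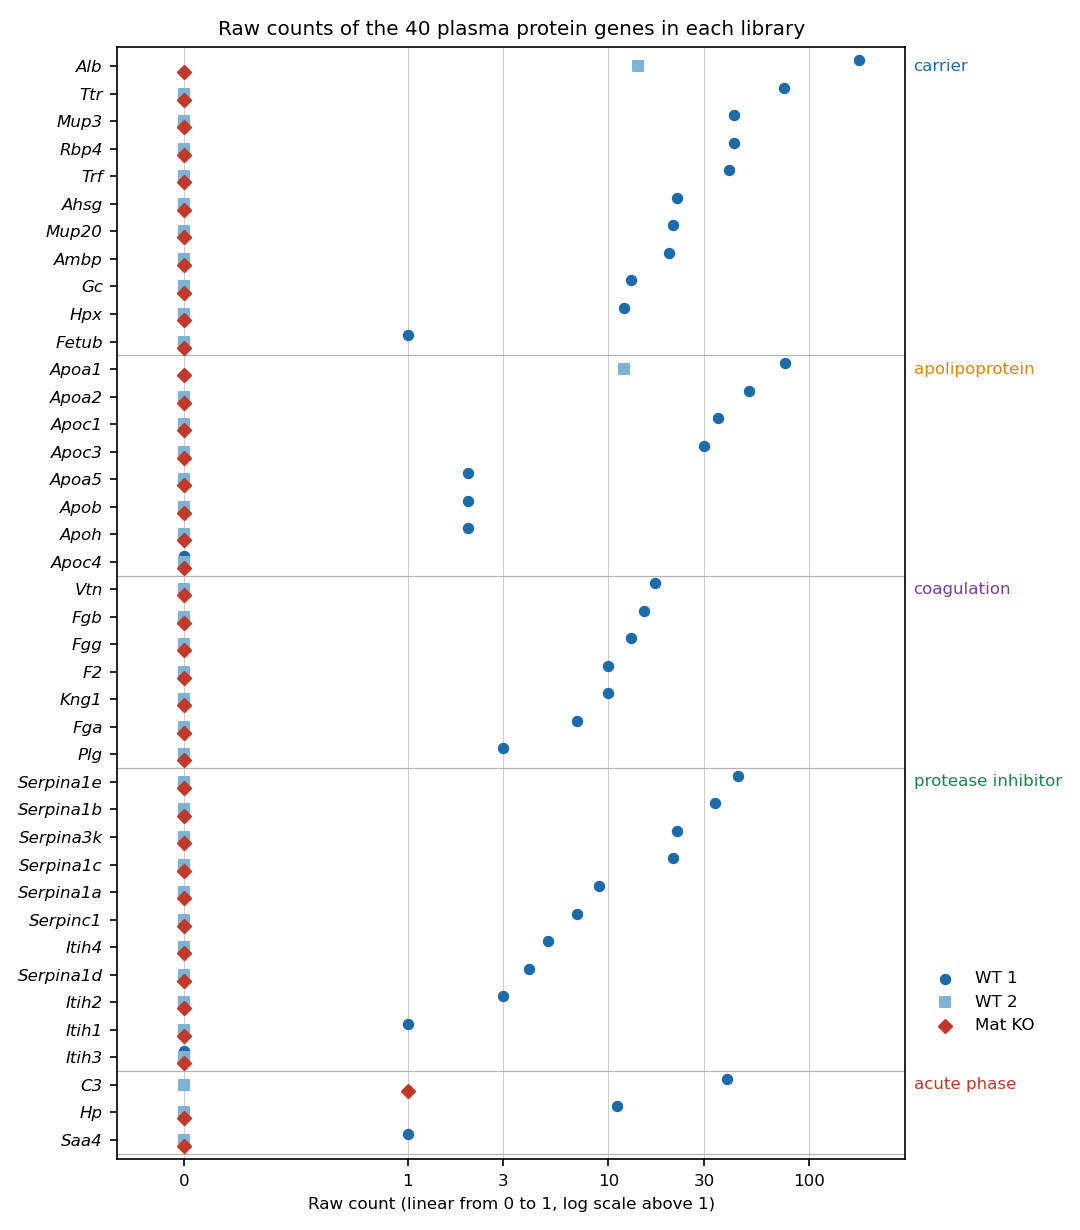
Raw counts of each of the 40 plasma protein genes (vertical axis, grouped by class) in WT 1 (circles), WT 2 (squares) and the Mat KO library (diamonds), on an axis that is linear from 0 to 1 and logarithmic above. WT 1 runs from 0 to 176 counts, WT 2 is above 0 only for Alb (14) and Apoa1 (12), and the Mat KO library only for C3 (1).

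The carrier proteins were the largest class, with 464, 14 and 0 counts, and they made up 49.5% (46.3 to 52.7) of the member counts of WT 1. Alb (ENSMUSG00000029368, GRCm38 chromosome 5 from 90460897 to 90476602), which encodes serum albumin, the carrier of fatty acids and bilirubin and the main protein of plasma, had 176, 14 and 0 counts. It stood at 84.2 per 10000 other counts (72.7 to 97.5) in WT 1 and 60.8 (36.3 to 102) in WT 2. On this scale the WT libraries overlapped within counting error, whereas 0 counts allowed 2.08 in the Mat KO library. The observed share of Alb was thus 40.5 times the limit of the Mat KO library in WT 1 and 29.3 times in WT 2. Ttr, the thyroxine and retinol-binding protein carrier transthyretin, had 75, 0 and 0 counts. Rbp4, which carries retinol and circulates bound to transthyretin, had 42, 0 and 0. Trf, the iron carrier transferrin, had 40, 0 and 0. Every carrier other than Alb was thus at 0 outside WT 1.

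Among the remaining carriers, Mup3 and Mup20, 2 major urinary proteins that bind pheromones and small lipids, had 42, 0 and 0 and 21, 0 and 0 counts. Ahsg, the mineral-binding fetuin A, had 22 counts in WT 1, whereas its paralog and chromosomal neighbour Fetub had 1. Ambp, the precursor of the lipocalin alpha-1-microglobulin and the inhibitor bikunin, had 20 counts, Gc, the vitamin D binding protein, 13, and Hpx, the haem scavenger hemopexin, 12. Each of these was at 0 outside WT 1. Since 0 counts in WT 2 allowed 13.04 per 10000, the 6.22 per 10000 (3.64 to 10.6) of Gc in WT 1 lay below what the depth of WT 2 could show.

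Apolipoproteins, which build and remodel lipoprotein particles, had 197, 12 and 0 counts. Apoa1 (ENSMUSG00000032083, chromosome 9 from 46228580 to 46230466), the main protein of high density lipoprotein, had 76, 12 and 0 counts. Its share of other counts was 36.4 per 10000 (29.1 to 45.5) in WT 1 and lay at 52.2 in WT 2. On this scale the ratio was 0.697, with an exact interval of 0.377 to 1.41, which includes 1. With 0 counts in the Mat KO library, the observed share of Apoa1 was 17.5 times the limit there in WT 1 and 25.1 times in WT 2. Apoa2, the second protein of high density lipoprotein, had 50, 0 and 0 counts. Apoc1 and Apoc3, small proteins that restrain the clearance of triglyceride-rich particles, had 35 and 30 counts in WT 1 and 0 elsewhere. The members of this class were uneven: Apoa5, Apob and Apoh each had 2 counts in WT 1, and Apoc4 had 0 in every library. Apob, the scaffold of very low density lipoprotein, has the longest mRNA of the list, with 13.9 kb of exons.

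Genes of coagulation and adhesion had 75 counts in WT 1, 35.9 per 10000 (28.6 to 44.9), and 0 in both other libraries. Their observed share in WT 1 was 2.75 times the limit of WT 2 and 17.3 times that of the Mat KO library. All 7 were counted in WT 1. Vtn, the adhesion protein vitronectin, had 17 counts. The 3 chains of fibrinogen, the clot-forming protein in which each chain is present in equal number, had 15 (Fgb), 13 (Fgg) and 7 (Fga) counts. F2, prothrombin, and Kng1, the kinin precursor kininogen, had 10 counts each, and Plg, the precursor of the fibrin-cleaving enzyme plasmin, had 3.

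Protease inhibitors had 150 counts in WT 1, 71.8 per 10000 (61.2 to 84.1), and 0 in both other libraries. Their observed share in WT 1 was 5.50 times the limit of WT 2 and 34.5 times that of the Mat KO library. Of the 150, 112 fell on Serpina1a to Serpina1e, the mouse family of alpha-1-antitrypsin, which in humans is a single gene for the main inhibitor of neutrophil elastase. Serpina1e had 44 counts, Serpina1b 34, Serpina1c 21, Serpina1a 9 and Serpina1d 4. Serpina3k, an inhibitor of the same serpin superfamily, had 22 counts, and Serpinc1, antithrombin, which inhibits thrombin, had 7. The heavy chains of the inter-alpha-trypsin inhibitor, which bind hyaluronan, were low, with 5 counts for Itih4, 3 for Itih2, 1 for Itih1 and 0 for Itih3.

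The division of counts among the Serpina1 genes is uncertain because the genes are near copies. Their coding sequences in GENCODE were 96.3% to 98.5% identical over 1239 aligned bases, in 10 pairs. The 60 bases with the most differences, 18 columns that vary among the 5 genes, are shown because the genes can best be told apart here. In serpins this end of the coding sequence holds the reactive loop that the target protease cuts. Capitals mark the columns that differ in at least 1 gene, and the window covers bases 1101 to 1160 of the coding sequence, counted from the A of the start codon, or 1170 to 1229 in Serpina1a, whose annotated coding sequence is 1308 bases long.
Serpina1a: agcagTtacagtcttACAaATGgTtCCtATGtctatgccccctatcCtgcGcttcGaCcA
Serpina1b: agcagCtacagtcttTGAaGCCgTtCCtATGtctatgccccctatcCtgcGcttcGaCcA
Serpina1c: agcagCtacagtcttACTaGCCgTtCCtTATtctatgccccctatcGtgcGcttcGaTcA
Serpina1d: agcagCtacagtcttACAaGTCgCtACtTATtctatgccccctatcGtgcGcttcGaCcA
Serpina1e: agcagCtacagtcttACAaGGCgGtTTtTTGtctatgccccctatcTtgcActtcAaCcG

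How far counting can separate a gene from its relatives was measured as the share of 50-base stretches of its main transcript that occur in no transcript of another gene. Read length is not stated, so the value describes sequence and not the reads. It was 64.4% for Serpina1e, 64.2% for Serpina1b, 49.1% for Serpina1d, 32.6% for Serpina1a and 20.7% for Serpina1c. Serpina1c was thus counted 21 times with the smallest unique part of the family, and Serpina1d 4 times with a larger one, so the order of counts did not follow the order of unique sequence. The sum of 112 is safer than its parts, although reads aligned to several places stand in a separate line of the count tables and in no gene. Of the 40 members, 26 had over 95% unique stretches.

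Outside Serpina1, 9 members had at most 95% unique stretches. Serpinc1 had 41.2% and Mup20 49.5%, and Kng1, Apoa5, Mup3, Apoc4, Serpina3k and Plg ran from 80.0% to 86.2%. Beside Mup3 and Mup20, another 20 protein-coding Mup genes are annotated, a list added after the data were seen, and 13 of them had counts in WT 1, 84 in all, led by Mup7 with 30 and Mup11 with 16, and all were at 0 elsewhere. Trf had 20.2% unique stretches, and 63.5% of its exon bases also belong to Gm20425 on the same strand. Reads that fall on several genes stand in a separate line of the tables as ambiguous. Serpinc1 shares 34.4% of its exon bases with Zbtb37 on the opposite strand, and Serpina1c shares 31.5% with B430119L08Rik, also on the opposite strand. Whether strand was used in counting is not stated. Of the 2 members without a count, Apoc4 shares 4.69% of its exon bases and Itih3 shares 0%.

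Acute phase and complement genes had 51, 0 and 1 counts. C3, the central component of complement, had 39, 0 and 1 counts, and its single count was the only member count of the Mat KO library. Hp, haptoglobin, which binds free haemoglobin, had 11, 0 and 0 counts. Saa4, a constitutive serum amyloid A carried on high density lipoprotein, had 1, 0 and 0. The 5 members named above as transcribed elsewhere too, Hp, C3, Trf, Rbp4 and Apoc1, gave 167 of the 937 counts of WT 1. Without them WT 1 held 770 counts, 368 per 10000 (344 to 395), WT 2 still 26, and the Mat KO library 0. The genes left are not limited to hepatocytes, since some, such as Apoa1 and Apob, are also made by enterocytes.

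**Figure D2:**
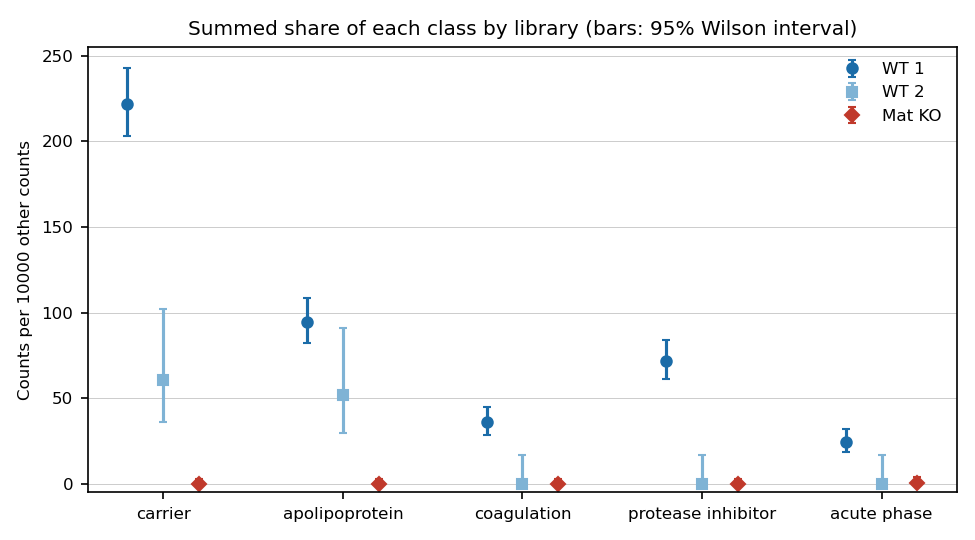
Summed counts of each class per 10000 counts outside the 4 most counted features, by library, with 95% Wilson intervals as bars. Carriers reach 222 in WT 1, and in WT 2 only carriers (60.8) and apolipoproteins (52.2) are above 0.

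WT 2 held counts of Alb and Apoa1 and of no other member, and the split below follows from those counts and is a description. Together these 2 genes had 252 counts in WT 1, 121 per 10000 (107 to 136), and 26 in WT 2, 113 per 10000 (77.2 to 165), a ratio of 1.07 with an exact interval of 0.711 to 1.67. The other 38 members had 685 counts in WT 1, 328 per 10000 (304 to 353), and 0 in WT 2, where 0 counts allowed 13.04 per 10000. At the share of other counts they had in WT 1, these 38 genes would have given 75.4 counts in WT 2. Both the ratio of 1.07 and these 75.4 counts depend on this scale. Per 10000 of all gene-assigned counts, Alb and Apoa1 stood at 39.0 in WT 1 and 1.09 in WT 2. Per 10000 nuclear protein-coding counts other than Lars2, they stood at 136 (120 to 153) and 213 (146 to 310). Alb and Apoa1 made up 26.9% (24.2 to 29.8) of the member counts in WT 1 and 100% (87.1 to 100) in WT 2. In WT 2 as a whole, 285 of the 425 genes with a count had a single one and 48 had at least 10, Alb and Apoa1 among the latter. Whether their 26 reads came from that many molecules was not tested.

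In the Mat KO library 39 of the 40 members were at 0, and the values that follow describe genes chosen for their counts in WT 1. The summed share of the 40 genes was 647 times higher in WT 1, with an exact interval of 116 to 25576 that rests on the single count of C3. Leaving out C3, the remaining 39 genes had 898, 26 and 0 counts. Their observed share was 207 times the limit of the Mat KO library in WT 1 and 54.4 times in WT 2. Alb and Apoa1, 2 of the 38 members with a count (5.26%), had a lower share in the Mat KO library than in both WT libraries, as did 204 of all 4856 genes with a count (4.2%). Nothing is read from these shares, because a gene at 0 in WT 2 cannot meet this rule, and Alb and Apoa1 were the only members above 0 there. Of the 642 genes counted in the Mat KO library, 321 had at least 10 counts, and 20 pancreatic acinar genes had 1, 16 and 908 counts. Liver and acinar genes had their highest shares in different libraries. Both lists were chosen with earlier results of these data known, so this is a description.

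No member was called in the test of Mat KO against WT, which the choice of members had already used. In edgeR's quasi-likelihood test over all 437 genes that passed the filter on low counts, 0 genes were called at a false discovery rate of 0.05, a background of 0%, and 0 had an unadjusted p under 0.05. Of the 40 members 19 passed the filter, 16 of them with 0 counts in both WT 2 and the Mat KO library, so they passed through WT 1 alone and could differ in only 1 direction. Their adjusted p ran from 0.729 to 0.777. DESeq2 and limma-voom also called 0 members, with an unadjusted p under 0.05 for 2 of the 19 members, Alb and Apoa1, in each, beside 7 of all 437 genes in DESeq2 and 21 of 437 in limma-voom, and over all settings tried the adjusted p of members ran from 0.365 to 0.939. With 2 libraries against 1, an exact permutation of the labels cannot give a one-sided p below 0.333. The p-values measure only the spread between the WT libraries, which may be technical. Fewer cells of a type and less RNA per cell cannot be told apart in such bulk samples.

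Levels can be compared between genes only per length, and on that scale Apoa2 and Alb had the highest values in WT 1. Apoa2 had 93.1 counts per kb of exon (exact Poisson interval 69.1 to 123), Alb 75.1 (64.5 to 87.1), Ttr 63.2 (49.7 to 79.3), Apoa1 61.5 (48.4 to 77.0) and Apoc1 47.0 (32.8 to 65.4). Neighbours in this order overlapped within their intervals, as did Apoa2 and Alb, so no first place is shown. Per kb of the main transcript in place of all annotated exons, Apoa2 and Alb stood at 96.5 and 86.5. Below them the order changed, with Apoa1 at 73.4, Apoc1 at 65.8, Ttr at 63.2 and Apoc3 at 57.0. On the scale of all exons, Mup3 followed Apoc1 at 39.3, with Rbp4 at 31.3, Apoc3 at 29.6, Serpina1e at 27.2 and Mup20 at 22.6 counts per kb. The lowest members with a count were Apob at 0.144, Itih1 at 0.304, Saa4 at 0.478 and Fetub at 0.510. Raw counts placed C3 ninth with 39, but with 5.14 kb of exons it had 7.58 per kb (5.39 to 10.4).

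Length and count were related among the members in WT 1, with exceptions: Alb led with 2.34 kb of exons, and Trf (3.32 kb) and C3 (5.14 kb) had 40 and 39 counts. The 12 members with at most 1.5 kb of exons ran from 2.87 to 93.1 counts per kb, with a median of 30.4, and the 13 with over 3 kb from 0 to 12.05, with a median of 1.36. Counts per kb are divided by length, so part of this contrast is built in, and it does not show the relation. Across the 38 members counted in WT 1, Spearman's rho between raw count and exon length was -0.46, whereas it was -0.09 across the 4223 protein-coding genes with a count in that library. These are descriptions across genes of 1 library, which share its depth, and genes are not replicates.

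**Figure D3:**
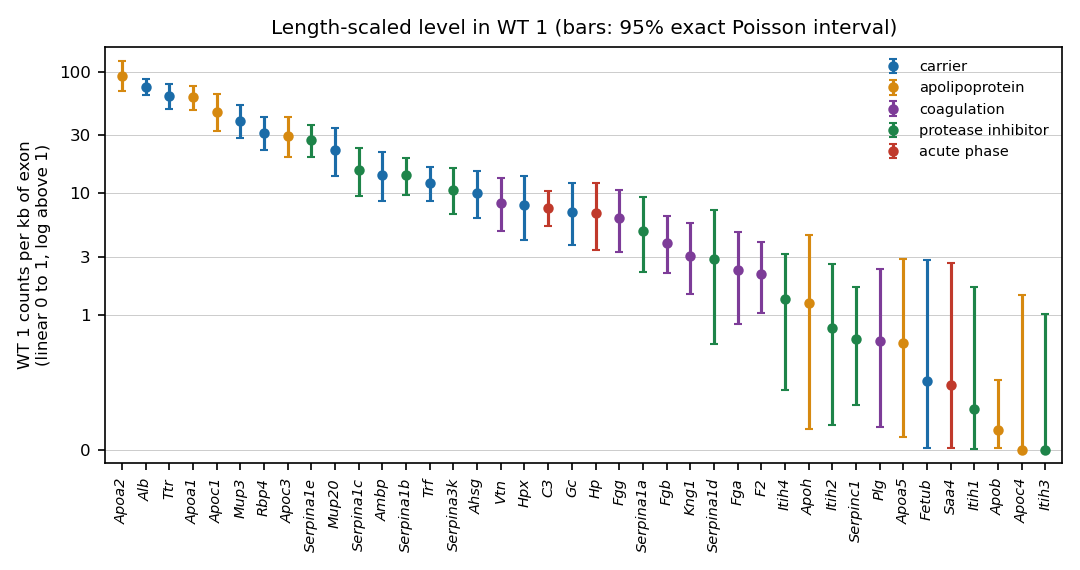
Counts per kb of annotated exon in WT 1 for the 40 genes, in descending order and coloured by class, with 95% exact Poisson intervals, on an axis that is linear from 0 to 1 and logarithmic above. Apoa2 (93.1), Alb (75.1), Ttr (63.2) and Apoa1 (61.5) lead, and the coagulation genes all lie under 10.

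Many members are chromosomal neighbours, and neighbours often had unlike raw counts in WT 1. Such counts are not scaled for length or unique sequence, so they do not compare levels between genes. Within 200 kb of each other lay 21 of the 40, in 7 clusters. On chromosome 9 (46228580 to 46271919), Apoa1 had 76 counts, Apoc3 30 and Apoa5 2. On chromosome 16 (22891277 to 23082078), Ahsg had 22, Fetub 1 and Kng1 10, and on chromosome 7 Apoc1 had 35 beside Apoc4 with 0. The fibrinogen cluster on chromosome 3 (83007724 to 83049863) had 13, 7 and 15 counts for Fgg, Fga and Fgb, and Mup20 and Mup3 on chromosome 4 had 21 and 42. The Serpina1 cluster lies on chromosome 12 from 103728156 to 103958975. Its 5 genes were counted in WT 1 and at 0 in both other libraries.

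Liver-enriched factors such as HNF1, HNF4 and the C/EBP family are known regulators of plasma protein genes, so the 250 bases before each start site were searched on both strands for HNF1 (GTTAATNAT), HNF4 (CAAAGTCCA or CAAAGTTCA), C/EBP (TTGCNNAA) and the TATA box (TATAAA). RefSeq promoters on GRCm38.p6 were found for 31 members, and Apoc1, Apoc3, Hp, Kng1, Mup20, Plg, Serpina3k, Trf and Ttr had none in that table. The C/EBP letters occurred in 14 of 31 members (45.2%), among them Alb, Apoa2, Ahsg, C3, Fgb and Hpx, against 10.8% of 27025 genes. The HNF1 letters occurred in 3 (9.68%), against 0.866% of genes, the TATA letters in 6 (19.4%), against 14.3%, and the HNF4 letters in 0, against 0.836%. Serpina1b, Serpina1d and Serpina1e, all with the C/EBP letters, are near copies and do not count as independent. A match describes the letters in this window and is neither a binding site nor a cause.

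The stretches of Alb, the most counted member, of Gc, with the HNF1 letters too, and of Apoa2, with the highest value per kb, are shown, since all 3 lie outside the GENCODE exons of their genes. Each runs from 150 bases before the start site to the base before it, 5′ to 3′ on the gene's strand, and capitals mark the letters found. In Alb (chr5:90460720-90460869, plus strand) HNF1 begins 32 bases and C/EBP 94 bases before the start. In Gc (chr5:89457899-89458048, minus strand) HNF1 begins 52 bases before it. In Apoa2 (chr1:171224904-171225053, plus strand) none of the letters occur, and its C/EBP letters stand before a second start site further upstream.
Alb: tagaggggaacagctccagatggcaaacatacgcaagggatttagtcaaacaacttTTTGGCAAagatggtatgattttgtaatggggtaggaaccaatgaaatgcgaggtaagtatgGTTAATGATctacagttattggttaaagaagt
Gc: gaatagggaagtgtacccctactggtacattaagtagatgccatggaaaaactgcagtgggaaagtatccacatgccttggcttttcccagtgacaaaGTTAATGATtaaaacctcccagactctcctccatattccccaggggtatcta
Apoa2: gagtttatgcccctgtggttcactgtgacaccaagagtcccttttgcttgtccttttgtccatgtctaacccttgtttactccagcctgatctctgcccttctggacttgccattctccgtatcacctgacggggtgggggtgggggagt
Fga is the third gene with the HNF1 letters. Alb, Gc and Fga had 176, 13 and 7 counts in WT 1. Per kb of exon they stood at 75.1, 7.05 and 2.33, beside a median of 6.95 over the members. Whether these letters go with level was not tested.

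Other hepatocyte genes were counted in WT 1 as well. Of 66 other plasma proteins of hepatocytes, 29 had a count there, 152 in all, or 72.7 per 10000 (62.1 to 85.2). Hamp, the iron hormone hepcidin, had 28, 0 and 0 counts, and Orm1, the acute phase protein orosomucoid, 13, 0 and 0. Selenop, the selenium carrier, had 19, 16 and 0, and Serpinf2, the plasmin inhibitor, 9, 3 and 0. These 2 gave all 19 counts of WT 2 on this list, 82.6 per 10000 (52.9 to 129), a share that overlapped that of WT 1. Selenop gave 16 of these 19 counts, so the overlap rests mainly on that gene and does not describe the list at large. Of 50 intracellular enzymes and lipid-binding proteins of hepatocytes, 35, 0 and 2 were counted, with 217, 0 and 13 counts. Fabp1, the liver fatty acid binding protein, had 36, 0 and 0, Cyp2e1, a cytochrome of ethanol oxidation, 32, 0 and 0, and Scp2, a sterol carrier made in many tissues, 20, 0 and 12. For comparison, 19.4%, 1.76% and 2.68% of all 21772 protein-coding genes had a count in the 3 libraries. The values were 43.9%, 3.03% and 0% for the 66 other plasma proteins and 70.0%, 0% and 4.00% for these enzymes. For the members they were 95%, 5.00% and 2.50%, and the 95% follows from their choice by counts in WT 1. The lists too were chosen with earlier results of these data known, so the values are a description.

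Genes of regulators and of the cell surface were counted about as often as protein-coding genes at large in WT 1, 25% and 20% against 19.4%. Of 20 hepatocyte transporters and receptors, 4 were counted in WT 1, among them the bile acid transporter gene Slc10a1 with 5 counts, and 0 elsewhere. Of 20 transcription factors of hepatocyte genes, 5 were counted in WT 1, with Cebpa, also made by myeloid progenitors, at 7 counts and Hnf4a at 1. Cebpb had 1, 1 and 0 counts and Onecut1 0, 0 and 1.

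Genes of other cells that could hold such transcripts were counted as well. Of 11 enterocyte genes, Anpep had 1 count in WT 1, and Apoa4 and Fabp2, like the others of the list, were at 0 in all libraries. All 12 kidney tubule genes were at 0 in every library, and so was Afp, the fetal plasma protein of yolk sac and fetal liver, while H19 and Igf2 of the same list had 4 counts each in WT 1. Of 13 genes of Kupffer, sinusoidal, stellate and bile duct cells, Dcn, also made by fibroblasts, had 29, 0 and 1 counts, Reln 4, 0 and 0, and the bile duct keratin Krt7 0, 0 and 5, and the Kupffer cell marker Clec4f was at 0 throughout. Of 11 macrophage genes, Apoe, which hepatocytes make too, had 158, 62 and 18 counts and C1qb 9, 0 and 0. Of 9 platelet genes, 6 were counted in WT 1, led by Ppbp with 17, and 0 elsewhere. Of 10 adipocyte genes, 4 were counted in WT 1, with Car3 at 20, Cfd at 10, Adipoq at 8 and Fabp4 at 4 counts, all 0 in both other libraries. Skeletal muscle genes had 356, 0 and 12 counts, led by Myh4 with 61, 0 and 0, and their summed share in WT 1 was 170 per 10000 (154 to 189). The origin of these transcripts was not tested. The part of these other cells in the members' values was not tested. With 1 Mat KO library, genotype and the content of that library cannot be told apart.

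**Figure D4:**
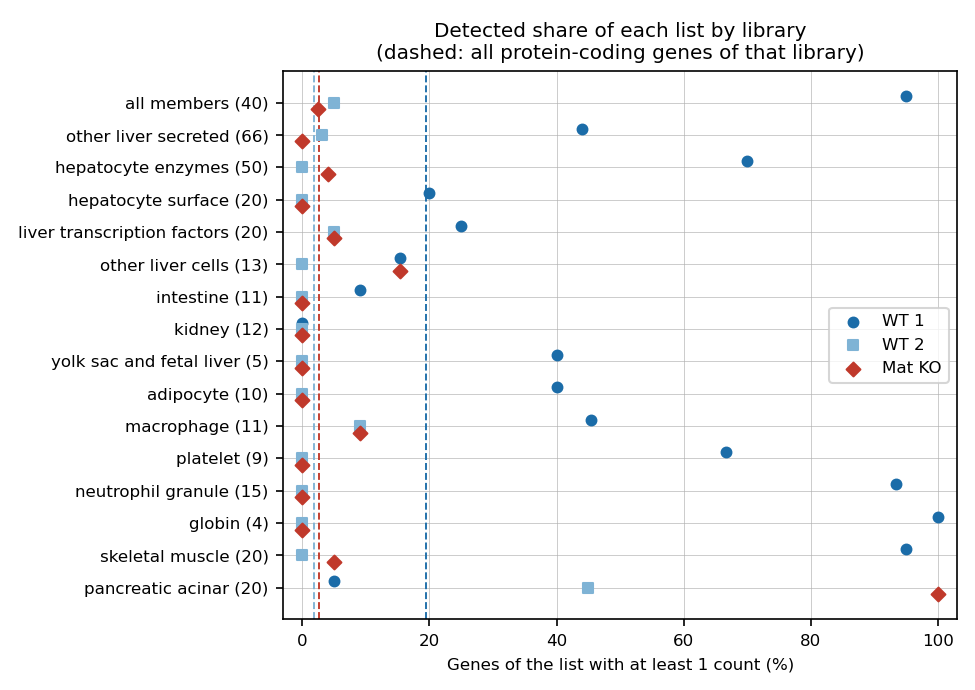
Percent of the genes of each list (number of genes in brackets) with at least 1 count in WT 1 (circles), WT 2 (squares) and the Mat KO library (diamonds), with dashed lines for all protein-coding genes of each library (19.4%, 1.76% and 2.68%). In WT 1 the members, chosen by their counts there, stand at 95% and hepatocyte enzymes at 70.0%, while kidney genes stand at 0 in all 3 libraries.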

How the data were processed

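Polysomal RNA of bone marrow cells was measured in 3 libraries, 2 WT and 1 Mat KO, grouped by title and genotype. The deposited tables hold whole-number counts, one line for each Ensembl identifier, with no scaling. Trimmomatic, HISAT2 2.1.0 and HTSeq 0.11.2 on GRCm38 are named, without roles, in the submitters' processing notes. Their annotation release, strand setting and read length are not given in the sources here. The 5 summary lines that name no gene were left out, and 15.1%, 11.8% and 9.99% of recorded reads were assigned to genes, in the order WT 1, WT 2, Mat KO. Symbols and exons came from GENCODE M21 (GRCm38), which named 48435 identifiers, and promoters from RefSeq (GRCm38.p6).

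Members and lists were chosen with earlier results of these data known. The text names every member and, from each of 15 other lists (286 of 288 symbols matched), up to 5 genes with the most counts, plus the 4 most counted features. Afp, Clec4f and other list genes at 0 are named as markers. A list of other Mup genes was added after the data were seen. No protein sequences were used, and 1 list gene is not reported here by name.

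Genes were tested across the whole table with edgeR 4.0.16 in R 4.3.3 (quasi-likelihood, TMM, filterByExpr with minimum count 10 and total 15, Benjamini-Hochberg). The fit had 1 residual degree of freedom, so Mat KO is taken to have the spread of WT. A check on simulated counts used a low dispersion (spread between libraries), whereas the common dispersion of these data was 3.86. That check does not show that the test could find a change here. DESeq2 1.42.0 and limma 3.58.1 were alternatives, with other scalings, no filter, other denominators, other count minimums and subsets of members. Intervals used SciPy 1.17.1 and Serpina1 sequences were aligned with MAFFT 7.526. Folds against 0 set it to 3 counts per library or summed list and take the other library at its observed share, so they are not lower bounds.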

Additional observations from a re-analysis of the deposited data

How the results depend on the processing

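No setting called a member in Mat KO against WT: other size factors, total counts alone, library sizes without the 4 most counted features, no low count filter, DESeq2 and limma-voom all gave 0, like the reported fit. Leaving out either WT library leaves 1 against 1, which has no residual degrees of freedom, so no call was computed. No paired analysis was possible because Mat KO has 1 library without a number. The ratio of the summed member share of WT 1 to that of WT 2, 3.97, became 134 per all gene-assigned counts, 2.36 per nuclear protein-coding counts other than Lars2, and 6.98 without Alb; it stayed above 1 in these and in the 2 other subsets. The number of members counted in WT 1, 38, became 25 with at least 10 counts. The leading member was Alb with 18.8% of member counts and, per kb of exon, Apoa2 with 14.6%. The Mat KO share of 0.693 per 10000 rests on 1 count and was 0.0794 per all gene-assigned counts. Depth limits WT 2 most: members under 13.04 per 10000 could be missed there.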
